A study of Drosophila melanogaster with 837 samples.

Results

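The genes described here encode oxidative phosphorylation, the respiratory chain and the ATP synthase of mitochondria. They were taken by symbol: ND- for complex I, UQCR- for complex III, COX followed by a digit for complex IV, ATPsyn for complex V and mt: for genes on the mitochondrial genome. Of 8862 rows in the series' gene table, 64 met this rule, 58 nuclear genes (33, 6, 7 and 12 in complexes I, III, IV and V) and 6 mitochondrial genes, which are given apart. The 58 nuclear genes lie on all chromosome arms, with 12 each on 3R, 3L and X, 11 on 2L, 9 on 2R and 2 on chromosome 4. All 64 had at least 10 reads in 5 cells, the filter on low genes that 8828 rows passed.

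The data comprised single cells of Drosophila melanogaster, all of 1 group, which the labels call somatic muscle. Embryos of the Mhc-TAU-GFP stock, in which a regulatory element of the muscle gene Myosin heavy chain drives a GFP that binds microtubules, were pooled at 19 to 20 h and dissociated with trypsin, and the sort into wells kept GFP-labelled cells that took up DRAQ5, which stains DNA, and left out those stained by DAPI, a dye that enters damaged cells. Full-length cDNA was made by Smart-seq2, with primers for the Hox genes added to every well. No animal or culture is named for any cell, so the cells form 1 sample, no test between groups could be made, and the spread over the 15 plates, which also differ in their mix of cells, is not a spread over animals.

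Electrons from NADH enter the respiratory chain at complex I and pass by way of ubiquinone, complex III and cytochrome c to complex IV, where oxygen is reduced. The proton gradient built on the way drives complex V, the ATP synthase. Most subunits are encoded in the nucleus and a few by mitochondrial DNA, so that both genomes supply parts of complexes I, III, IV and V.

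All but 28 of the cells held 500 genes with 10 or more reads and were used, 40 to 66 on each of 15 plates. They had 34569 to 5393789 reads outside ribosomal RNA (rRNA) rows, with a median of 402732, and 41.9% of all their reads came from 11 rRNA rows, which were left out of the library size. Levels are therefore reads scaled to a common library size without rRNA (CPM), a relative scale on which a gene can rise because others fall. A cell was called positive for a gene at 10 reads, and 4 genes were used in turn: Mhc (13.5% of cells, 1 to 32 on a plate), Ppn (28.2%, 9 to 23), apolpp (41.8%, 13 to 31) and esg (11.6%, 2 to 12). A cell could be positive for more than 1 of these, as 73 cells were, while 14.5% of cells were positive for none.

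The labelled tissue was found in a minority of cells. In Mhc-positive cells, all 16 contractile markers had 10 reads in at least 25% of cells, Mlc1, a myosin light chain, in 77.98%. The Ppn-positive cells had 10 reads of the hemocyte gene Pxn, a peroxidase of the extracellular matrix, in 88.6%. Of the other hemocyte markers, NimC1 reached 56.1% of them, He 53.1% and Hml 19.7%. The markers srp, vkg and Col4a1 did not set them apart, at 87.3%, 94.3% and 93.4% against 87.9%, 96.7% and 97.3% of apolpp-positive cells. The apolpp-positive cells had the fat body genes Adh and FASN1, a fatty acid synthase, in 96.7% and 89.1%. Of the esg-positive cells, 75.5% had 10 reads of sna, a zinc finger factor related to esg. The Mhc-positive cells were mixed, since 30.3% of them also had 10 reads of apolpp and 22.02% of Ppn. Plate 17 stood apart, with 32 Mhc-positive cells, 29.4% of the total, at a median of 30.5 Mhc reads. The other 77 were spread over 14 plates and had a median of 15 contractile markers, against 8 on plate 17. In cells positive for Mhc alone the median was 42 Mhc reads on plate 17 (5 cells) and 901.5 elsewhere (44 cells). The 29 Mhc-negative cells of plate 17 had 10 reads of 7 contractile markers (median), against 1 elsewhere. The part of plate 17 in the Mhc results is given beside them.

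Over all cells the 58 nuclear genes summed to 34452 CPM (exact Poisson 95% interval 34436 to 34469, counting error only), with plates from 24375 to 46785 (SD 5990, n = 15 plates). Complex V supplied 46.5% of this sum, complex I 28.4%, complex IV 14.1% and complex III 11.03%. The 6 mitochondrial genes summed to 4689 CPM.

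Levels of different genes were compared per transcript length, as the mean TPM over cells without rRNA. ATPsynC, the c subunit whose ring turns in the membrane and which each enzyme holds in many copies, had the highest level of the nuclear genes at 4638 TPM. The other 10 ATP synthase genes detected in most cells lay between 752.5 TPM for ATPsynB, of the peripheral stalk, and 1513 TPM for ATPsynF, of the membrane part. The catalytic ATPsynbeta stood at 881 TPM and ATPsyngamma, the rotating central stalk, at 796.4 TPM. These levels are means over cells that differ widely, and neighbours in this order overlap between plates.

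In complex III the small subunits UQCR-Q, UQCR-11 and UQCR-14 had the highest levels (2161, 1724 and 1072 TPM), while the large core proteins UQCR-C1 and UQCR-C2 were at 404.4 and 381.4 TPM. The level of UQCR-11 rests in part on plates 14 and 15, where it took 1163 and 2216 CPM against a median of plates of 298.7. The order without these plates was not computed. The order on the read scale was different, since UQCR-C1, UQCR-Q and UQCR-C2 took 981, 973 and 849 CPM, which long transcripts raise. In complex IV, COX8 (1994 TPM), COX7C (1551) and COX5A (1474) led, and COX6B was lowest at 893 TPM. COX4 and COX5B, which sit against the catalytic core, had 1141 and 1309 TPM. No row of this table carries the symbol of a complex IV assembly factor such as COX10 or COX11.

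Complex I covered the widest range among widely detected genes. The small accessory subunits ND-B12 and ND-MLRQ had 1630 and 1140 TPM, and ND-B22 was the next. The level of ND-MLRQ rests in part on plate 15, where it took 1620 CPM against a median of plates of 268.4. The subunits that carry electrons were lower, with ND-20 at 216.9, ND-51, which binds NADH, at 185.6, ND-49 at 180.8, ND-23 at 163.1 and ND-75, the largest, at 61.1 TPM. The median over the 33 genes was 401.6 TPM, against 844, 1309 and 1014 TPM in complexes III, IV and V.

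**Figure D1:**
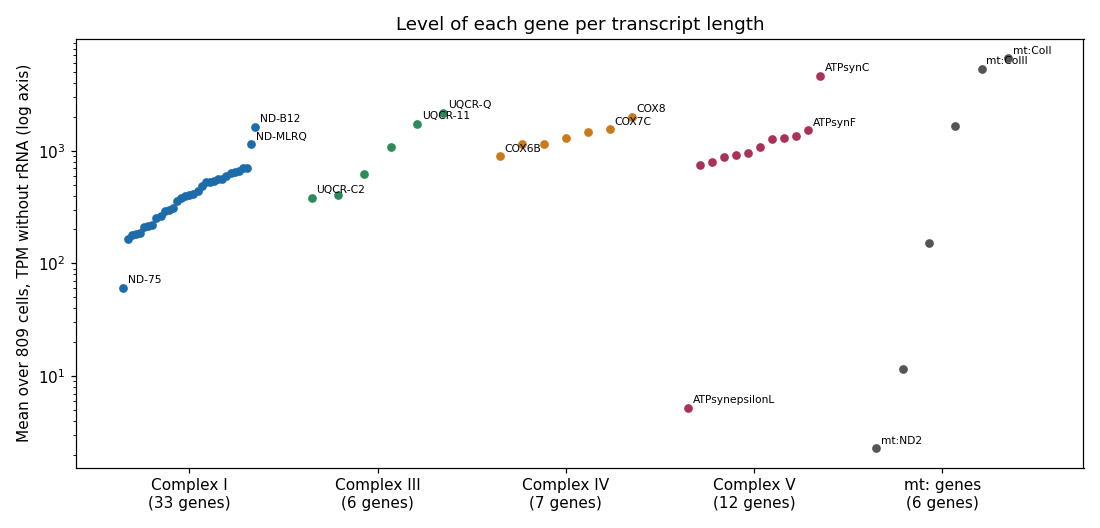
Mean TPM over cells (log axis) of each of the 64 genes, grouped by complex, 1 point per gene in rising order. ATPsynC at 4638 TPM stands above the other nuclear genes, ATPsynepsilonL at 5.26 TPM below them, and the mitochondrial genes run from 2.30 TPM for mt:ND2 to 6593 TPM for mt:CoII.

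Detection followed the same pattern. ATPsynC had 10 reads in 95.8% of cells (exact Clopper-Pearson interval 94.2 to 97.1) and UQCR-Q in 90.6%, while ND-23, an iron-sulfur subunit of complex I, reached 47.6% (44.1 to 51.1). Over the 58 genes the median share was 70.1%. The exception was ATPsynepsilonL, a gene whose symbol marks it as related to the epsilon subunit. It had 10 reads in 7 cells (0.865%, interval 0.349 to 1.77), and 51.4% of its reads came from a single Mhc-positive cell. The 20 nuclear genes of the same naming found only in the cell files are described in the closing section.

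The question at each split is whether cells marked by a gene differ in respiratory gene reads from the rest. The apolpp-positive cells, with fat body markers, had 2.97 times the nuclear sum of apolpp-negative cells, 53945 (53915 to 53974) against 18134 (18118 to 18150) CPM. The log2 ratio was 1.57, and it was above 0 on 15 of 15 plates (1.12 to 1.99, SD 0.25). Of the 58 genes, 56 were at least 2-fold higher, against 13.4% of all genes tested, and 0 were at least 2-fold lower, against 49.2%. The median log2 ratio of the 58 genes was 1.55, while that of all genes was −0.97, so most genes were lower on this scale and the respiratory genes lay 2.52 above the median gene. On 15 of 15 plates 56 of the 58 were higher, as were 6.97% of all genes.

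ATPsynC ranged over plates from 7155 to 11399 CPM in apolpp-positive cells (median 9201) and from 2024 to 5912 CPM in negative cells (median 3232). The plates of the 2 kinds of cell did not overlap for this gene. ATPsynbeta did not overlap either, with 2381 to 5412 CPM (median 3559) in positive and 877 to 1982 (median 1359) in negative cells. In complex IV, COX4 took 1077 to 1858 CPM (median 1529) in positive against 264.3 to 716.7 (median 499.6) in negative cells, also without overlap. COX5A and COX7A did not overlap either, while the plates of COX5B, COX6B, COX7C and COX8 did, COX5B taking 595.4 to 1443 CPM in positive and 195.7 to 664.8 in negative cells. Over the 4 complexes, 28 of the 58 genes did not overlap, against 3.21% of all genes tested.

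The largest log2 ratios were those of ND-19 (2.02), ND-B14.5A (1.98), ATPsynO (1.96) and ND-ACP (1.95), 3 subunits of complex I and the subunit that joins the head of the ATP synthase to its peripheral stalk. ND-ACP is also the acyl carrier protein of mitochondrial fatty acid synthesis. ND-19 had 375.5 to 558.9 CPM over plates (median 495.5) in apolpp-positive and 59.3 to 201.2 (median 129.7) in negative cells, with no overlap. The smallest among widely detected genes were ND-51 (0.95), ND-B16.6 (1.02), UQCR-11 (1.19) and ND-B14.7 (1.20), and here the plates of ND-51 did overlap, at 358.9 to 778.04 against 176.5 to 452.3 CPM. Of the core genes, UQCR-C1 (1.65), UQCR-C2 (1.86), ND-20 (1.49) and ATPsyngamma (1.35) lay between. Shares of cells pointed the same way after every cell was thinned to 106282 non-rRNA reads, since ND-23 then had 10 reads in 72.9% of apolpp-positive and 23.8% of negative cells (71.6% and 30.4% unthinned), and ND-19 in 84.8% and 34.4% (79.6% and 39.3% unthinned).

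The Ppn-positive cells, most of them with Pxn, went the other way. Their nuclear sum was 13494 CPM (13475 to 13512) against 43319 (43297 to 43340) in Ppn-negative cells, a log2 ratio of −1.68 that was below 0 on 15 of 15 plates (−2.39 to −1.09, SD 0.34). Of the 58 genes, 55 were at least 2-fold lower, against 31% of all genes tested, and 0 were at least 2-fold higher, against 11.5%. Their median log2 ratio was −1.69, against −0.29 for all genes. On every plate 54 of the 58 were lower, as were 8.27% of all genes. The Ppn-negative cells include most of the apolpp-positive cells, so both splits draw in part on the same cells.

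The lowest ratios among widely detected genes were those of ATPsynD (−2.17), of the peripheral stalk, ND-23 (−2.15), ATPsyndelta (−2.12), of the central stalk, and ATPsynbeta (−2.12). ATPsynbeta had 302.8 to 1179 CPM over plates (median 755.7) in Ppn-positive and 2075 to 4674 (median 3069) in negative cells, with no overlap. ND-23 came close to overlapping, with 15.7 to 134.1 (median 48.8) against 136.8 to 274.1 CPM (median 230.7). ATPsynC was less far apart, at 1613 to 4369 (median 2491) against 5246 to 10316 CPM (median 7695), a log2 ratio of −1.50.

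The genes nearest to 0 were ND-B14.7 (−0.94), ND-B16.6 (−0.97), ND-13B (−0.99) and UQCR-6.4 (−1.14). ND-B14.7 was also the least uniform of these, being lower on 13 of 15 plates where the other 3 were lower on 15. Core subunits of each complex lay well below them, ND-75 at −1.80, UQCR-C1 at −1.96, COX5A at −1.68 and ATPsyngamma at −1.92.

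The esg-positive cells also had a lower nuclear sum, 18942 CPM (18902 to 18983) against 35928 (35910 to 35945), a log2 ratio of −0.92 that was below 0 on 14 of 14 plates with at least 3 such cells (−1.64 to −0.16, SD 0.39). Of the 58 genes, 30 were at least 2-fold lower, against 28.8% of all genes tested, and 0 at least 2-fold higher, against 30.2%. With all rows in the library 12 of them were 2-fold lower, against 2295 of 8828 genes in all, and as a mean of single cells 16, against 28.4%, so on these scales the count was no longer above the share of all genes. The median of the 58 was −1.03, against 0.22 for all genes, and it stayed below the median gene on both other scales (−0.78 against 0.47 and −0.77 against 0.15). On all 14 plates 21 of them were lower, as were 7.34% of all genes.

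The log2 ratios of the members spread more in this split than in the others, and so did those of all genes. The distance between quartiles was 0.51 for the 58 members (0.19 to 0.38 in the other splits) and 2.55 for all genes (1.35 to 2.19). ND-23 (−2.01), ND-B14 (−1.80), ATPsynE (−1.68) and ND-19 (−1.67) were at the low end, and UQCR-C2 stood at −1.62. ND-B14 had 0 to 220.5 CPM over plates in esg-positive cells (median 89.03) and 224.6 to 433.1 (median 348.9) in negative cells, with no overlap. It was the only 1 of the 58 members whose plates did not overlap in this split, and the share of all genes was not computed. At the other end, ND-20 (0.06) and ND-51 (−0.06), both core subunits of complex I, were nearly level, and UQCR-Q (−0.24) and ATPsynbeta (−0.30) little lower. The plates of ND-20 overlapped broadly, with 0 to 663.6 CPM (median 239.3) in positive and 152.9 to 379.4 (median 269.04) in negative cells. Within the ATP synthase, ATPsynC fell by 1.25 on the log2 scale and ATPsynbeta by 0.30. Within complex III, UQCR-C2 fell by 1.62 and UQCR-Q by 0.24.

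**Figure D2:**
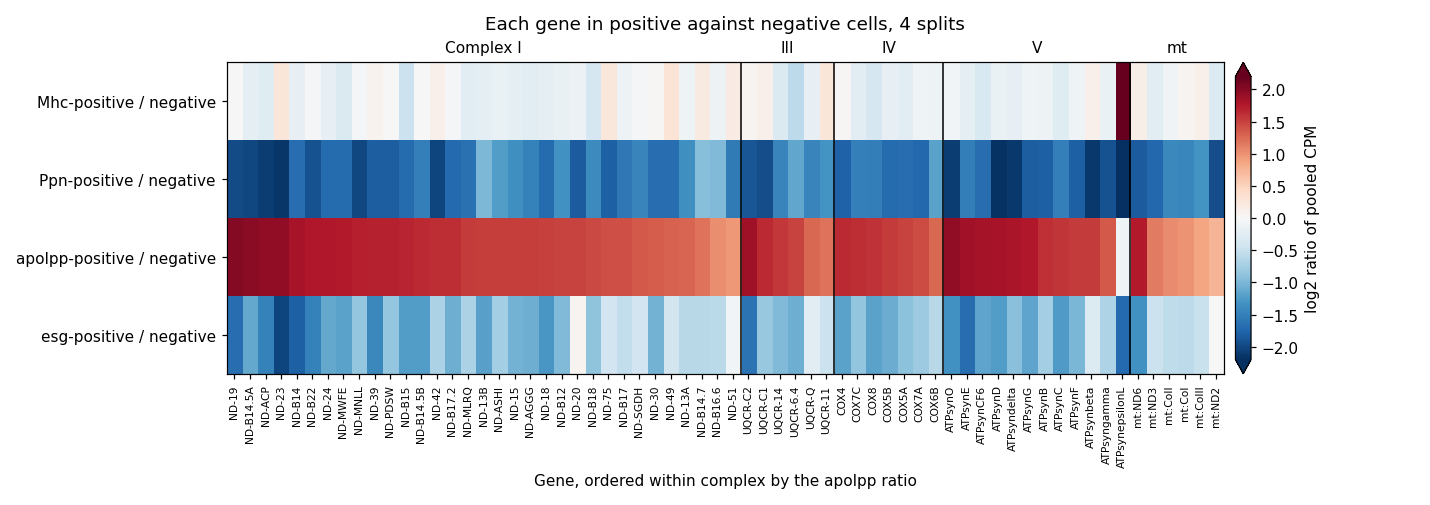
Log2 ratio of pooled CPM in positive over negative cells for each of the 64 genes (columns, by complex and by falling apolpp ratio) in the 4 splits (rows); red is higher and blue lower in positive cells. The apolpp row is red and the Ppn row blue across nearly all columns, the esg row is blue with ND-20 near white, and the Mhc row is pale except ATPsynepsilonL at 2.74, for which 51.4% of reads came from 1 cell.

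The Mhc-positive cells as a whole did not differ from the rest by more than the spread of plates. Their nuclear sum was 32188 CPM (32146 to 32230) against 34811 (34794 to 34828), a log2 ratio of −0.11, and it was above 0 on 6 and below 0 on 7 of 13 plates (−2.33 to 0.58, SD 0.83). Its sign depended on the setting, at 0.22 with 1 read of Mhc as the threshold, 0.16 on the TPM scale and −0.47 with 50 reads. Of the 58 genes, 1 was at least 2-fold higher, against 20.5% of all genes tested, and 0 were at least 2-fold lower, against 14.9%. The 1 gene was ATPsynepsilonL, which at 4.16 against 0.622 CPM rests on the cell named above. The median of the 58 was −0.11, against 0.06 for all genes.

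The 4 widely detected genes with the highest ratios were ND-49 (0.31), ND-23 (0.27), UQCR-11 (0.26) and ND-75 (0.24), and the 4 with the lowest were UQCR-6.4 (−0.58), ND-B15 (−0.47), COX8 (−0.37) and ND-B18 (−0.36). ND-49 took 438.8 CPM in positive and 355.1 in negative cells and was higher on 8 of 13 plates. UQCR-6.4 took 125.4 against 187.95 CPM and was lower on 10 of 13. The catalytic ATPsynbeta was at 0.10 and ATPsynC at −0.27. One deep cell of plate 10, positive for Mhc alone and with 14 contractile markers, carried 4059407 reads, and without it, an exclusion chosen after the data were seen, ND-75 stood at 0.08 and ND-23 at 0.16. Cells with Mhc and at least 8 contractile markers, a rule described below, were also compared without plate 17. There ND-49 stood at −0.05, ND-23 at −0.06 and ND-75 at −0.18, and only UQCR-11 (0.08) of the 4 highest stayed above 0. Of the 4 lowest, UQCR-6.4 stood at −0.85, ND-B15 at −0.49, COX8 at −1.04 and ND-B18 at −0.62.

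The pooled Mhc value joined unlike cells. The 33 cells positive for Mhc and apolpp had 54188 CPM of nuclear respiratory reads, close to apolpp-positive cells as a whole, and the 24 positive for Mhc and Ppn had 17822 CPM. Of the 33, 17 were on plate 17 and 16 on all other plates, where they had a median of 2 contractile markers. Cells with Mhc and at least 8 of the 16 contractile markers, a rule added after the data were seen, numbered 78 and had 25530 CPM. On plates other than 17 there were 56 of them, with a median of 1283 Mhc reads and 22199 CPM, and there the log2 ratio to Mhc-negative cells was −0.66, within 1 SD of plates of the value over all Mhc-positive cells. Without the deep cell of plate 10 these 55 cells had 18097 CPM and a log2 ratio of −0.95. That lies just over 1 SD of plates (0.83) below the −0.11 of all Mhc-positive cells, and within 1 SD of their −0.16 without that cell.

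Cells with 10 reads of only 1 of the 4 genes were set in order. The pooled nuclear sum was 54484 CPM in cells with apolpp alone (36.6% of cells), 27047 with none of the 4 (14.5%), 23070 in the 49 cells with Mhc alone, 19096 in the 79 with esg alone and 12689 with Ppn alone (24.1%). The median over single cells was 49901, 17368, 12491, 16080 and 10603 CPM in the same order, so Mhc and esg cells change places and the neighbours from none to esg do not separate. They also change places without the deep cell of plate 10, which held 16.3% of the reads of the Mhc-alone cells and without which these had 18028 CPM. Cells with apolpp alone were above each of the other 4 kinds on every plate where both could be measured, and 0 cells with Ppn alone lay above the apolpp median. Between the extremes the sum differed 4.29-fold, and all 57 nuclear genes found in at least 10% of cells were higher with apolpp alone than with Ppn alone. The share of all genes higher in that comparison was not computed. Cells with Ppn alone were above cells with esg alone on 1 of 12 plates, and cells with Mhc alone above those with esg alone on 5 of 6.

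The makeup of the sum changed little between these kinds of cell. Complex V took 42.9% (Mhc alone) to 47.7% (none of the 4) of the nuclear CPM, complex I 27.3% to 30.1%, complex IV 13.8% to 14.8% and complex III 10.3% to 12.7%. Without the deep cell of plate 10, complex V took 41.9% and complex III 13.9% in cells with Mhc alone. Each complex alone gave nearly the log2 ratio of the whole, between 1.52 and 1.62 in the apolpp split and between −1.77 and −1.61 in the Ppn split.

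**Figure D3:**
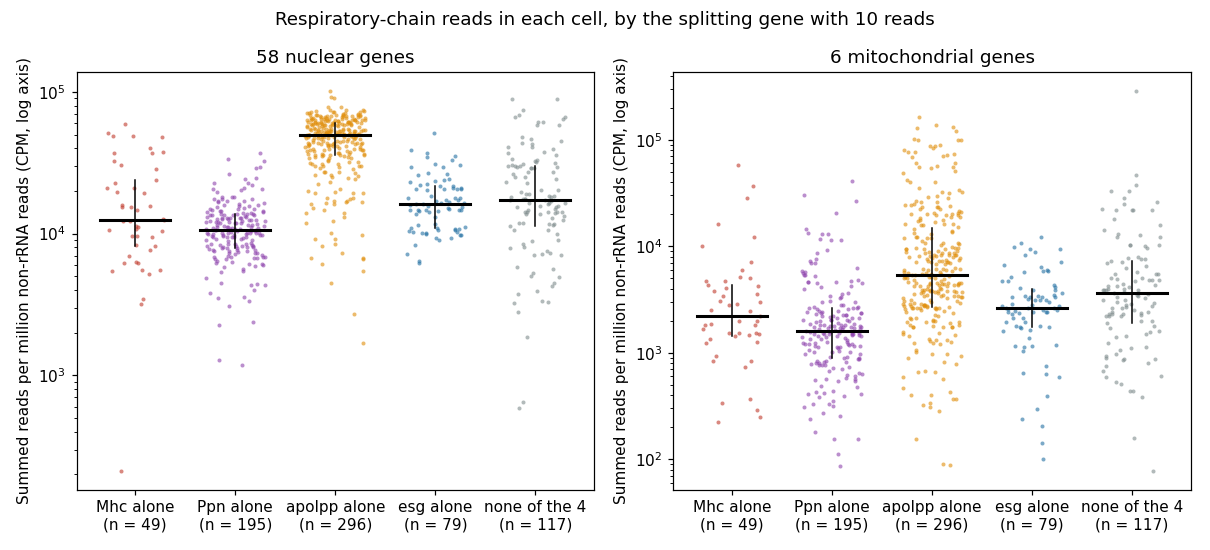
Summed CPM (log axes) of the 58 nuclear genes (left) and of the 6 mitochondrial genes (right) in each cell with 10 reads of 1 or none of the 4 splitting genes; bars mark the median and vertical lines the quartiles. In the left panel the apolpp cells (median 49901) lie above the others, and in the right panel the groups overlap more.

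Within the apolpp-alone cells the level varied with the rRNA share. In the 99 cells with the lowest rRNA share (1.28% to 29.8% of all reads) the median nuclear sum was 58720 CPM, in the middle 98 it was 54237 and in the 99 with the highest (61.1% to 95.8%) it was 30051. The median of mitochondrial reads went the other way, from 2636 by way of 6052 to 22265 CPM. The median number of non-rRNA reads fell from 906674 to 162809 across the same cells, and the part of depth or RNA quality in this pattern was not tested. Across these cells, which share plates and the library size in both measures, Spearman's rho was −0.63 between the nuclear sum and the rRNA share and −0.51 between the nuclear and the mitochondrial sum.

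**Figure D4:**
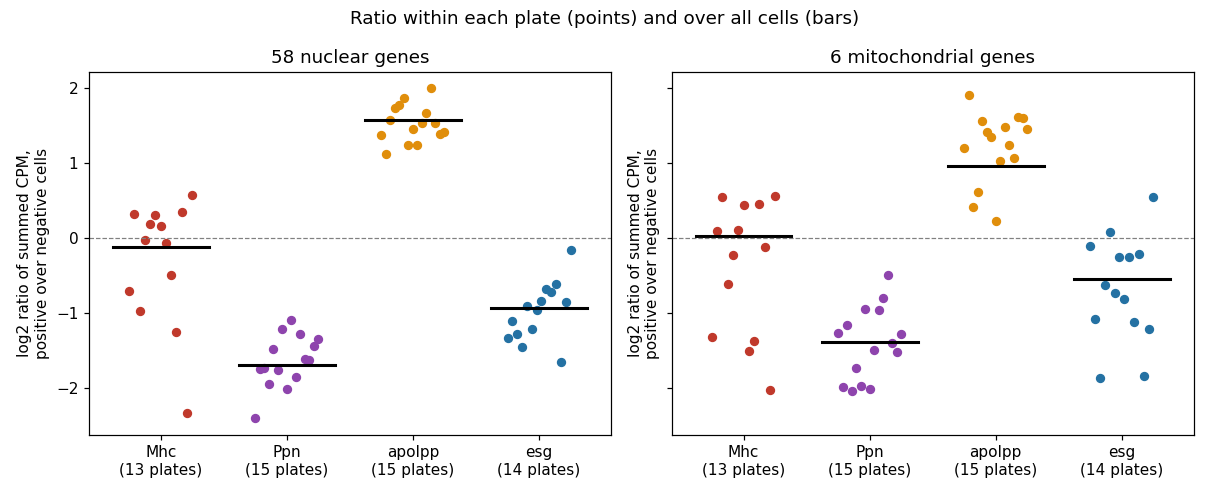
Log2 ratio of summed CPM, positive over negative cells, within each plate with at least 3 cells of either kind (points) and over all cells (bars), for the nuclear genes (left) and the mitochondrial genes (right). All 15 nuclear points lie above 0 for apolpp and below 0 for Ppn, all 14 below 0 for esg, and the 13 Mhc points fall on both sides.

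Of the 6 mitochondrial genes, the 3 core subunits of complex IV took nearly all reads. Per length, mt:CoII stood at 6593 TPM, mt:CoIII at 5355 and mt:CoI at 1646, and each had 10 reads in over 95% of cells, mt:CoIII in 99.5%. The complex I subunits were far lower, mt:ND3 at 150 TPM, mt:ND6 at 11.5 and mt:ND2 at 2.30, and mt:ND6 had 10 reads in 8 cells. Other genes of the mitochondrial genome were not analysed here. Across all cells, mt:CoI, mt:CoII and mt:CoIII followed each other, with Spearman's rho of 0.90 to 0.95, values that share each cell's library size.

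The mitochondrial sum had the sign of the nuclear sum in the apolpp, Ppn and esg splits. It was 6386 CPM in apolpp-positive and 3268 in negative cells (log2 ratio 0.97, above 0 on 15 of 15 plates, but 1.57 as a mean of single cells), and 2199 against 5742 CPM in the Ppn split (−1.39, below 0 on 15 of 15). In the esg split it was 3319 against 4819 CPM (−0.54, below 0 on 12 of 14 plates), and in the Mhc split 4780 against 4674 (0.03, below 0 on 7 of 13, and −0.20 without the deep cell of plate 10). At the level of genes, mt:CoII had 2225 CPM (median of plates, 462.1 to 4728) in apolpp-positive and 930 (132.1 to 2614) in negative cells, and its plates overlapped. At 2-fold, 3 of the 6 were higher in the apolpp split (13.4% of all genes), 6 lower in the Ppn split (31%) and 1 lower in the esg split (28.8%, a larger share than 1 of 6).

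Mitochondrial reads came to 21.6% of the nuclear sum in cells with Mhc alone, 19.98% in those with none of the 4, 15.5% with Ppn alone, 15.3% with esg alone and 11.8% with apolpp alone. The first 2 values rest on 1 cell each. The deep cell of plate 10 held 52.8% of the mitochondrial reads of the Mhc-alone cells, which came to 15.6% without it, and 1 cell held 21.5% of those with none of the 4, which came to 15.7% without it. Leaving out the cell with most mitochondrial reads gave 15.1% with Ppn alone, 15.02% with esg alone and 11.5% with apolpp alone. The median over single cells was 18.6%, 18.99%, 13.8%, 15.1% and 10.7% in the order first given, with quartiles that overlap. In 9 cells at least 10% of the non-rRNA reads were mitochondrial, up to 28.8%. These 9 included 7 with apolpp alone, and over all 9 the median rRNA share was 93.5% and the median nuclear sum 7338 CPM. Over all cells the nuclear and mitochondrial sums had a rho of 0.17.

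Members of the nuclear set followed each other across all cells, and less closely within a kind of cell. Each gene was correlated with the sum of the others over all cells, and the 58 values of Spearman's rho had a median of 0.67. The highest were ATPsynC (0.81), ATPsynD (0.81) and ATPsynO (0.80), and apart from ATPsynepsilonL (0.10) the lowest were ND-51 (0.53), ND-B14.7 (0.53) and ND-13A (0.54). Sums of complexes I and IV had a rho of 0.89 over all cells, and of 0.77 within cells with apolpp alone and 0.63 within cells with Ppn alone. These are descriptions over cells of 1 sample that share the library size.

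Plates differed for a few members in a way that the splits did not. UQCR-11 reached 2216 CPM on plate 15 and 1163 on plate 14, while the other 13 plates lay between 114.4 and 437.5. ND-MLRQ reached 1620 CPM on plate 15 against 86.8 to 468.6 elsewhere, and ND-AGGG 882 against 43.8 to 258.9. For these 3 genes the highest plate was 6.01 to 7.42 times the median of plates, and for the other 54 it was 1.17 to 1.84 times. On the low side the lowest plate of these 54 was 0.32 (UQCR-6.4, plate 5) to 0.75 times the median. The rise was broad among cells, since the median cell of plate 15 had 1676 CPM of UQCR-11 and the median cell elsewhere 210.8. All 3 lie near the centromere-proximal end of chromosome 3L in the Ensembl annotation of BDGP6, ND-MLRQ at 23339326 to 23345936, ND-AGGG at 24976254 to 24977118 and UQCR-11 at 25120709 to 25126171. Without plate 15 their apolpp ratios were 1.51 for ND-MLRQ, 1.45 for ND-AGGG and 1.17 for UQCR-11.

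Plates 5 and 17 differed in another way. On these, genes with short transcripts were low. Across 57 genes, which are not independent replicates, the log2 level of a plate over the median of plates had a Spearman's rho with transcript length of 0.69 on plate 5 and 0.74 on plate 17, and of −0.64 to 0.27 on the other 13. On plate 17 the genes with transcripts under the median length had a median of −0.71, and the longer ones 0.03. The part of library preparation in these plate values was not tested.

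**Figure D5:**
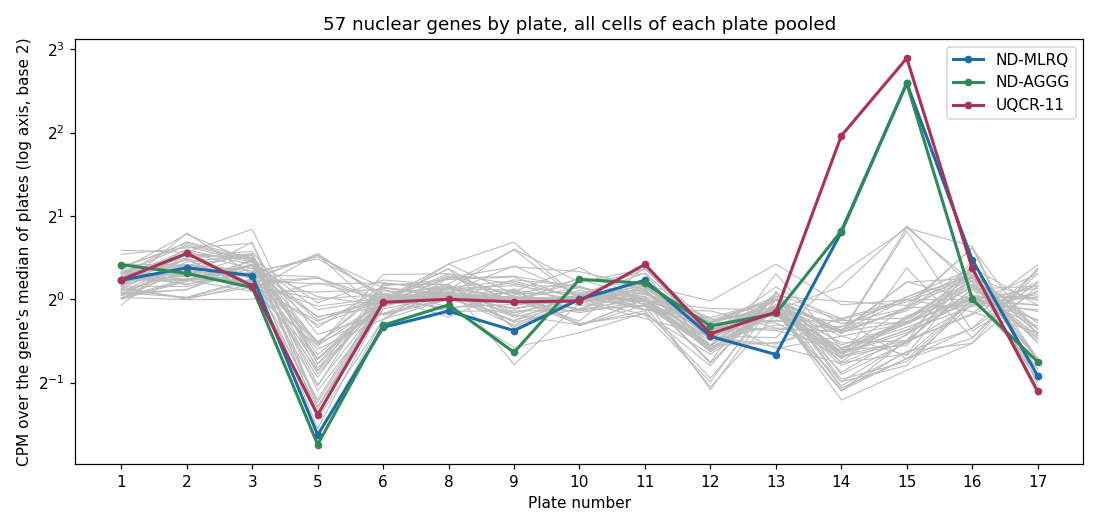
CPM of 57 nuclear genes on each of the 15 plates, divided by the gene's median of plates (log axis, base 2), 1 line per gene. UQCR-11, ND-MLRQ and ND-AGGG (coloured) rise to 7.42, 6.03 and 6.01 times their median on plate 15, while the grey lines reach at most 1.84 times and fall to 0.32 times (UQCR-6.4 on plate 5).

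Genes of the same pathway that the symbols miss were read from a fixed list of 17. In the apolpp split 10 of them were at least 2-fold higher (13.4% of all genes) and 2 lower (49.2%), and in the Ppn split 14 were lower (31%) and 0 higher (11.5%). Cyt-c-p, the main cytochrome c, had 2169 to 4138 CPM over plates (median 3423) in apolpp-positive and 687.7 to 1279 (median 870) in negative cells, with no overlap. The ATP synthase alpha subunit blw moved like ATPsynbeta, at 1.72, −2.18, −1.15 and −0.02 in the apolpp, Ppn, esg and Mhc splits. In the esg split 7 of the 17 were lower (28.8% of all genes), Cyt-c-p at −1.59 the most among those found in over 10% of cells, and 1, Ant2, was higher at 1.47 (30.2%).

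Complex II, which feeds electrons from succinate and also serves the citric acid cycle, followed less closely. In the apolpp split SdhA was at 0.64, SdhB at 0.12, SdhC at 0.79 and SdhD at 1.32, and in the esg split they lay between −0.13 and 0.35. In the Ppn split all 4 were below −1.30. SdhA was at 0.83 in the Mhc split, and at 0.46 without the deep cell of plate 10.

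In the Mhc split 2 of the 17 genes of this list were at least 2-fold higher, against 20.5% of all genes tested, and 0 lower, against 14.9%. Mpcp1, a mitochondrial phosphate carrier, had 70.5 CPM in Mhc-positive and 0.554 in negative cells (log2 ratio 6.99), and 18 of the 22 cells with 10 reads of it were Mhc-positive, all 18 with at least 8 contractile markers. Mpcp1 had 10 reads in only 2.72% of all cells, so most Mhc-positive cells fell short of 10 reads, and 1 cell held 18.3% of its reads. Its paralog Mpcp2 was at 0.14. The testis-type cytochrome Cyt-c-d, found in 9.39% of cells, was the other gene past 2-fold, at 1.19.

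Other lists of genes are set beside these. Of all genes tested, 13.4% were at least 2-fold higher and 49.2% lower in the apolpp split. In the Ppn split 11.5% were higher and 31% lower, and in the esg split 30.2% and 28.8%. In the apolpp split 6 of 12 citric acid cycle genes and 7 of 12 glycolysis genes were at least 2-fold higher and 1 of each lower (medians 0.83 and 1.41), and 8 and 9 were lower and none higher in the Ppn split (medians −1.19 and −2.34). In the apolpp split, Sucb (2.74) and Idh (2.0) of the citric acid cycle list were higher. Idh3b (0.01) and l(1)G0156 (−0.03) were nearly level, and CG5028 (−1.62) was the 1 gene of that list at least 2-fold lower. The 86 ribosomal protein genes had medians of 0.30 in the apolpp and −0.42 in the Ppn split, with 1 gene at least 2-fold higher and 2 lower in the former, and 2 higher and 1 lower in the latter. Of the 22 Vha genes of the vacuolar proton pump, which spends ATP, 20 were lower and 0 higher in the apolpp split (median −2.27) and 18 higher and 4 lower in the esg split (median 1.90), medians opposite in direction to the respiratory genes in both.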

How the data were processed

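Smart-seq2 libraries of 837 sorted cells were read from the deposited files. Per the labels and the study's methods, the authors trimmed the reads and pseudo-aligned them to BDGP6 cDNA with kallisto (0.43.0 in the submitters' processing notes, which also name R 3.5.1). The authors deposited a series table of estimated counts per gene, in whole numbers, and a file per cell with the TPM and estimated counts of every transcript. Smart-seq2 does not mark strand, so reads of genes that overlap on opposite strands cannot be told apart. Reads carry no molecular identifiers, so intervals cover the counting error of reads only, not of molecules or cells. Leaving out 1 cell at a time moved the nuclear sum more than these intervals. It ran from 30613.2 to 33578.8 CPM in Mhc-positive and from 53695.5 to 54131.6 CPM in apolpp-positive cells.

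Estimated counts were summed over cells and divided by non-rRNA reads (CPM). Cells needed 500 genes at 10 reads, which 809 did. Of these, 109, 228, 338 and 94 were positive for Mhc, Ppn, apolpp and esg, 49, 195, 296 and 79 for that gene alone and 117 for none. Features needed 10 reads in 5 cells, and called means 2-fold. A side with 0 reads took a floor of 3 reads. TPM was summed to genes through Ensembl release 115 (30280 of 30651 transcripts matched) and used for levels per length. For thinned shares each cell was drawn down to 106282 non-rRNA reads, and 81 shallower cells were left out. Plate ratios needed 3 cells on either side. No doublet caller was run, and cells positive for more than 1 gene are given apart. No test was run, since the cells form 1 sample. Fold estimates were tested on simulated data. Named genes were, by rule, the 3 highest by TPM in each complex, members found in under 5% of cells, the 4 highest and 4 lowest ratios of each split among members found in at least 10%, all mt: genes and 13 core subunits. The members, splits, lists and this rule were chosen with earlier results of these data known. Python 3.11.15 was used with numpy 2.4.6, pandas 2.3.3, scipy 1.17.1 and matplotlib 3.10.9.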

Additional observations from a re-analysis of the deposited data

Results flagged for a closer look

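The cell files hold 22 genes with respiratory symbols that have no row in the series' gene table, 20 nuclear and 2 mitochondrial, and their reads were not part of any comparison above. They came to 2035 reads over all cells, 2033 of them nuclear, against 17635400 reads of the 58 nuclear genes, and are given because they lie above the 3 reads that a count of 0 allows. Of the 20 nuclear symbols, 19 end in L or in L and a digit, which marks relatives of a main gene, and 5 were at 0 reads. ND-51L1 took 26.93% of the 2035 reads and had 10 reads in 6 cells, COX6AL took 20.4% (3 cells) and COX4L 16.4% (6 cells), and no other had 10 reads in more than 4 cells. Reads of such relatives could be shared with the main gene by pseudo-alignment, which was not tested.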

How the results depend on the processing

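The apolpp, Ppn and esg ratios kept their sign under every alternative. The Mhc ratios, smaller than 1 SD of plates, did not, and ran from −0.66 to 0.22 (nuclear) and from −0.24 to 0.30 (mitochondrial). The nuclear one was 0.22 at 1 read of Mhc, 0.16 with TPM and 0.11 relative to ribosomal protein genes. Of all recomputed values, 18 moved by more than 1 SD of plates or, for counts, by over 1.5 times. With TPM averaged over cells, the nuclear log2 ratios came nearer to 0, at 0.97 for apolpp, −1.10 for Ppn and −0.43 for esg. Relative to ribosomal protein genes, a scale added after seeing the data, they were 1.28, −1.26 and −1.37. Exclusive groups gave 1.83 for apolpp. The mitochondrial apolpp ratio was 1.57 as a mean of single cells. Members lower in esg-positive cells numbered 49 at 1.5-fold, 12 with all rows in the library and 16 as a mean of single cells. The shares of all genes for the 12 and the 16 are given with the esg results. In Mhc-positive cells 11 were lower with exclusive groups and 1 with 8 contractile markers as well. The share of all genes was not computed at 1.5-fold, with exclusive groups or with 8 contractile markers. The counts of 49, 11 and 1 therefore do not show whether members were lower more often than other genes. The median share of cells with a gene detected was 76.5% at 1 read and 56.1% at 50 reads, and the nuclear sum over a library with rRNA was 20018 CPM.

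Leaving out each plate in turn gave nuclear log2 ratios of −0.20 to −0.03 (Mhc), −1.73 to −1.65 (Ppn), 1.52 to 1.60 (apolpp) and −0.99 to −0.88 (esg). Without plate 14, the members of the Mhc split at 2-fold were 0 higher and 1 lower (ranges 0 to 1 and 0 to 1). Counts of 10 reads limit low genes such as mt:ND6 and ATPsynepsilonL.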
